A study of Mus musculus with 7 samples.

Results

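The genes described are 53 protein-coding genes of the lysosome: the proton pump that acidifies it, the cathepsin proteases, the main proteins of its membrane, 1 calcium channel and 2 transcription factors. They were taken by symbol from a table of 55487 genes: every symbol that begins with Atp6v or Atp6ap, Cts followed by 1 letter, Lamp followed by 1 digit, and Scarb2, Cd63, Mcoln1, Tfeb and Tfe3. The rule uses symbols and no measured value, but it was drawn up with earlier results of these data known. The tissue was inguinal white adipose tissue, the fat under the skin of the groin, whose transcripts were read by RNA sequencing. The mice were of the NOD/ShiLtJ strain, which is prone to autoimmune diabetes. All groups shared that strain and a blood glucose of 190 to 230 mg/dL. The sham group, with 3 libraries, received KRBH buffer. The imBAT group, with 4 libraries, received the part above 100 kDa of a buffer that brown adipocytes had conditioned, at 1.5 mg/kg body weight under the skin for 7 days. The fraction is defined by size and its proteins are not named in the labels. An injection period of 7 days was recorded for the sham libraries too. RNA was taken 2 to 8 weeks after the injections, but the week of each library and the ages of the mice were not recorded. Nothing in the labels ties each library to a mouse of its own, and the p-values below reflect library-to-library spread, which may in part be technical.

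The lysosome digests proteins, lipids and sugars in an acid lumen. Its proton pump, the V-ATPase, has a V1 sector in the cytosol that splits ATP and a V0 sector in the membrane that passes protons, and several of its subunits exist as isoforms encoded by separate genes with different tissue patterns. Cathepsins are proteases that mature and work in that acid. Heavily glycosylated membrane proteins such as Lamp1 and Lamp2 line the inside of the membrane, Mcoln1 releases calcium through it, and Tfeb and Tfe3 are transcription factors that bind an E-box-like element in the promoters of many lysosomal genes. In adipose tissue both adipocytes and macrophages hold lysosomes, and immune cells add cathepsins of their own. The groin fat pad of the mouse also holds a lymph node and mammary ducts.

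Because Tfeb and Tfe3 are themselves among the genes, the promoters were searched for letters related to their element, both strands at once since each motif reads the same on either. RefSeq promoters on GRCm38.p6, windows of 300 bases around the transcription start, were matched by symbol for 42 of the 53 genes. The 10-letter motif, TCACGTGA with a G before and a C after it, was in none of the 42, against 0.37% of all 27025 genes with a promoter in the table. Its inner 8 letters, TCACGTGA, were in 6 of 42 genes (14.3%), against 1.12% of all genes. The 6-letter E-box CACGTG, which every longer match also contains, was in 10 of 42 (23.8%), against 8.09% of all genes. By promoter, the shares over all 32851 windows were 0.326%, 0.974% and 7.15% for the 3 motifs. These are counts of letters, with no test, and say nothing of binding.

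At least 1 match is shown for each gene that held the 8-letter motif or the E-box, whether or not it passed the later test. Ctsb was among the genes without a matched promoter. The 8-letter matches, in capitals within 30 bases read 5′ to 3′ along the gene's strand, came from Atp6v0d1 (chr8:105566050-105566079, minus strand), Atp6v0e (chr17:26676387-26676416, plus), Atp6v1a (chr16:44139373-44139402, minus), Ctsa (chr2:164833749-164833778, plus), Ctsd (chr7:142387908-142387937, minus) and Mcoln1 (chr8:3500462-3500491, plus).
Atp6v0d1: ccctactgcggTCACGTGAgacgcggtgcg
Atp6v0e: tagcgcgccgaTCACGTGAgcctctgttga
Atp6v1a: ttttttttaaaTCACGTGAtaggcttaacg
Ctsa: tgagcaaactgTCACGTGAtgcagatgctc
Ctsd: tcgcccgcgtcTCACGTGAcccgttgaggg
Mcoln1: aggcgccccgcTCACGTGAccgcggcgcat
The match of Atp6v0d1 lay across the RefSeq transcription start and that of Atp6v0e just after it, while the other 4 lay upstream. Ctsa held a further 8-letter match just after its start. The genes with the 6-letter E-box alone, in capitals, were Atp6v0b (chr4:117887330-117887359, minus strand), Ctsf (chr19:4855074-4855103, plus), Ctsl (chr13:64370739-64370768, minus) and Lamp1 (chr8:13159095-13159156, plus), the last shown over 62 bases because it held 4 E-boxes there.
Atp6v0b: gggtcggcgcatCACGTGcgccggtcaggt
Ctsf: caccccgtggtcCACGTGcctcgcgtaaat
Ctsl: ggcgttagaagcCACGTGctgatctaaatt
Lamp1: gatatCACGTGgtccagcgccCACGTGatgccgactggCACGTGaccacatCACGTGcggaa

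Of the 53 genes, 43 had enough counts to be tested. In the comparison of imBAT with sham, 24 of the 43 rose (55.8%) and 3 fell (6.98%), at an adjusted p under 0.05 in edgeR's quasi-likelihood test. Over all 26393 genes tested, 24.3% rose and 19.3% fell. The median log2 fold change was 0.51 over the 43 genes and -0.01 over all genes. The rises ran through the pump, part of the cathepsins and the membrane proteins, and the falls were the cathepsin Ctsw, the membrane protein Lamp3 and the transcription factor Tfeb. Every imBAT library lay above every sham library for 26 of the 43 genes, against 26.8% of all genes, and below for 4, against 25.2%. Under upper-quartile scaling, which lowered the median of all genes to -0.25 and that of the 43 genes to 0.27 on the log2 scale, 21 rose and 6 fell. The share of higher genes among the called ones was 88.9% under the main scaling and 77.8% under that one, while over all genes it moved from 55.8% to 36.6%.

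**Figure D1:**
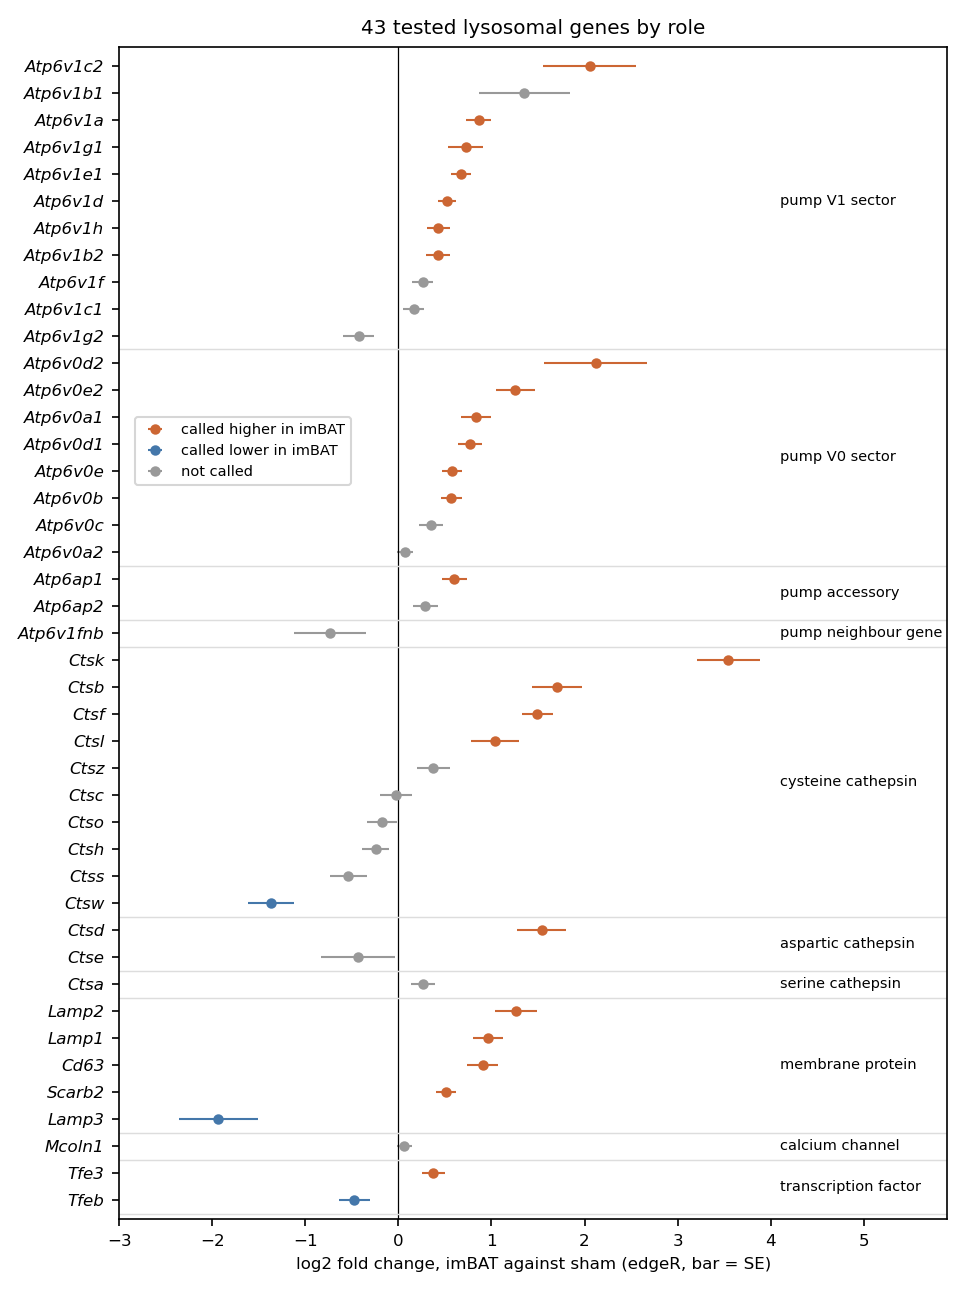
Log2 fold change of imBAT against sham (x axis, edgeR, bar = SE) for each of the 43 tested genes, in rows grouped by role and sorted within each role. Orange marks the 24 genes that rose, blue the 3 that fell and grey the 16 that did not pass the test; values run from -1.94 for Lamp3 to 3.55 for Ctsk.

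Library totals ran from 41025786 to 44983250 counts for sham and from 43360208 to 63650016 for imBAT. All 12 adipocyte markers and all 10 mammary epithelial markers rose, and all 10 T cell and all 10 B cell markers fell. By a chi-square comparison of counts, the imBAT libraries differed more among themselves than the sham libraries did, and imBAT replicate 3 was the farthest from the others. Without it, 22 of the lysosomal genes rose and 3 fell. Leaving out sham replicate 2 lowered the number of genes called over the whole table from 11491 to 7519, and the lysosomal genes then counted 19 higher and 2 lower. In bulk tissue, fewer cells of a type and less RNA per cell cannot be told apart.

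The V1 sector of the pump was measured through 13 genes, of which 11 were tested: 7 rose, none fell, and the median log2 fold change was 0.52. Their summed level was 400 ± 30.9 CPM (SD, n = 3; reads relative to the library total as scaled by the TMM method) in sham and 606 ± 60.6 CPM (n = 4) in imBAT libraries. The sums did not overlap between the groups. Atp6v1a encodes subunit A, which carries the site that splits ATP, and lies at chr16:44085402-44139705 on GRCm38. It stood at 55.1, 47.9 and 49.8 CPM in the sham libraries and at 97.9, 78.3, 111 and 83.0 CPM in the imBAT libraries. That is a log2 fold change of 0.86 ± 0.14 (SE; edgeR adjusted p = 0.00237), with every imBAT library above every sham library. The stalk subunits D, E and G rose as well, by 0.52 ± 0.10 for Atp6v1d, 0.67 ± 0.11 for Atp6v1e1 and 0.72 ± 0.19 for Atp6v1g1, the last losing its call without sham replicate 2 (edgeR adjusted p = 0.0643).

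Atp6v1b2, the widespread isoform of subunit B, and Atp6v1h, a regulatory subunit, rose by 0.43 ± 0.13 each on the log2 scale. Both calls were lost under upper-quartile scaling and when any one of the sham libraries was left out, and that of Atp6v1b2 also without imBAT replicate 1 or 3. Atp6v1f had a log2 fold change of 0.26 ± 0.11 and did not pass the test (edgeR adjusted p = 0.086), though it did without imBAT replicate 2 and with the title number as a block. Atp6v1c1, the widespread isoform of subunit C, had 0.17 ± 0.11, and -0.08 under upper-quartile scaling. Atp6v1e2 and Atp6v1g3, with 1 and 24 counts in all 7 libraries together, were too low to test.

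Atp6v1c2 encodes the subunit C isoform known from kidney, lung and other epithelia (chr12:17284721-17329359, GRCm38). It stood at 2.01, 0.582 and 1.55 CPM in sham and at 9.33, 3.34, 3.96 and 6.33 CPM in imBAT libraries, a log2 fold change of 2.05 ± 0.50 (edgeR adjusted p = 0.0115). The groups did not overlap, and sham replicate 2 was the lowest library. Atp6v1b1, the subunit B isoform of acid-secreting epithelia, stood at 50.4, 8.92 and 20.4 CPM in sham and at 64.6, 74.5, 52.1 and 80.5 CPM in imBAT libraries. Its groups did not overlap either, but its log2 fold change of 1.36 ± 0.49 missed the threshold (edgeR adjusted p = 0.0525). It passed with DESeq2, with limma voom and without sham replicate 1, the highest sham library, where it was 2.22. The 10 mammary epithelial markers, which all rose, summed to 582, 171 and 306 CPM in sham and to 1247 to 2386 CPM in imBAT libraries. Their order in the sham libraries was that of Atp6v1b1 and Atp6v1c2, with replicate 1 highest and replicate 2 lowest. Other genes, such as Atp6v1a, Ctsb, Ctsd and Lamp2, had that sham order too. In the imBAT group the marker sum was highest in replicate 2 and lowest in replicate 3. There Atp6v1c2 was highest in replicate 1 and lowest in replicate 2, and Atp6v1b1 was highest in replicate 4 and lowest in replicate 3. The part of mammary epithelium in these values was not tested. Atp6v1g2, the neuronal isoform of subunit G, went the other way, from 7.33 ± 0.521 CPM (SD, n = 3) in sham to 5.46 ± 0.696 CPM (n = 4). Its groups were apart, while the log2 fold change of -0.43 ± 0.16 did not pass the test (edgeR adjusted p = 0.0651), though it did without imBAT replicate 2, under upper-quartile scaling, with the 1 CPM filter, and with DESeq2 or limma voom. Atp6v1fnb, a gene named for lying beside Atp6v1f and not a pump subunit, stood under 1 CPM in every library and did not pass the test.

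The V0 sector had 9 genes, of which 8 were tested: 6 rose, none fell, and the median log2 fold change was 0.68. Their summed level was 336 ± 19.1 CPM (SD, n = 3) in sham and 495 ± 62.4 CPM (n = 4) in imBAT libraries. Atp6v0d1, the widespread isoform of subunit d, which couples the sectors, rose by 0.77 ± 0.13, and Atp6v0a1, an isoform of the large subunit a, by 0.83 ± 0.16 (edgeR adjusted p = 0.00287 and 0.00475). Atp6v0e and Atp6v0b, a small subunit and a subunit of the proton-carrying ring, rose by 0.58 ± 0.11 and 0.57 ± 0.11.

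Atp6v0e2, the second isoform of subunit e (chr6:48537615-48541801, GRCm38), stood at 11.1, 8.36 and 8.44 CPM in sham and at 20.1, 20.3, 30.3 and 18.1 CPM in imBAT libraries. Its log2 fold change was 1.25 ± 0.21 (edgeR adjusted p = 0.00273), and imBAT replicate 3 was the highest. Atp6v0d2 encodes the subunit d isoform known from osteoclasts and macrophages (chr4:19876841-19922605, GRCm38). In the sham libraries 2, 6 and 14 reads were counted, against 30, 31, 29 and 35 in the imBAT libraries. The log2 fold change was 2.12 ± 0.55 (edgeR adjusted p = 0.0147), at a level under 1 CPM in all 7 libraries, and the call was lost without sham replicate 2 (edgeR adjusted p = 0.0571).

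Atp6v0c, the main ring subunit, had 0.35 ± 0.13 and did not pass the test (edgeR adjusted p = 0.0596), though it did without imBAT replicate 2, with limma voom and with the title number as a block. A processed pseudogene of it, Atp6v0c-ps2, was listed with 789 to 860 counts in sham and 1164 to 1553 in imBAT libraries, and reads of the gene and its copy may have been split between them. Atp6v0a2 had a log2 fold change of 0.07 ± 0.09, and -0.17 under upper-quartile scaling. Atp6v0a4, the kidney isoform of subunit a, had 41 counts over all libraries and was not tested.

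Of the accessory proteins, Atp6ap1 (chrX:74297097-74304721, GRCm38), which helps to assemble V0 and stays bound to it, stood at 107, 88.2 and 90.8 CPM in sham and at 162, 121, 162 and 133 CPM in imBAT libraries. All imBAT values were above all sham values, and the log2 fold change was 0.60 ± 0.14 (edgeR adjusted p = 0.00849). Atp6ap2, also called the prorenin receptor, stood at 30.8, 31.3 and 28.7 CPM in sham and at 43.1, 29.3, 37.2 and 38.5 CPM in imBAT libraries. Its groups overlapped through imBAT replicate 2 alone, and its log2 fold change of 0.29 ± 0.13 did not pass the test (edgeR adjusted p = 0.11), though it did without that library, with limma voom and with the title number as a block. Atp6ap1l had 8 counts, all in sham replicate 1.

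The makeup of the pump was described by the share of each isoform in the reads per kilobase of exon of all isoforms of its subunit, with no test. Subunit C was 7.65 ± 4.04% Atp6v1c2 in sham (SD, n = 3) and 23.0 ± 8.34% in imBAT libraries (n = 4), and the groups did not overlap. Atp6v1b1 made 46.4, 13.6 and 27.3% of subunit B in the sham libraries and 37.4 to 55.0% in the imBAT libraries, where the overlap came from sham replicate 1. Subunit G was 8.75 ± 1.33% Atp6v1g2 in sham and 4.29 ± 1.15% in imBAT libraries, apart. In subunit a, Atp6v0a1 made 23.1 ± 0.413% in sham and 34.0 ± 4.32% in imBAT libraries.

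Atp6v0a2 made 26.8 ± 1.05% and 23.4 ± 1.38% of subunit a, and Tcirg1, the isoform of osteoclasts and lymphocytes whose symbol lies outside the choice of genes, 49.9 ± 1.50% and 42.5 ± 3.13%. None of these 3 shares overlapped between the groups, but shares of a subunit depend on each other. By level only Atp6v0a1 passed the test. Atp6v0a2 and Tcirg1 had log2 fold changes of 0.07 and 0.03 (edgeR adjusted p = 0.552 and 0.853). Atp6v0e2 made 26.2 ± 3.57% of subunit e in sham and 36.0 ± 3.74% in imBAT libraries, also apart. Subunit d stayed almost wholly Atp6v0d1, with Atp6v0d2 at 0.197 ± 0.168% in sham and 0.499 ± 0.125% in imBAT libraries. Without division by length the difference of the groups in the share of Atp6v1c2 was 7.43 percentage points in place of 15.3.

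**Figure D2:**
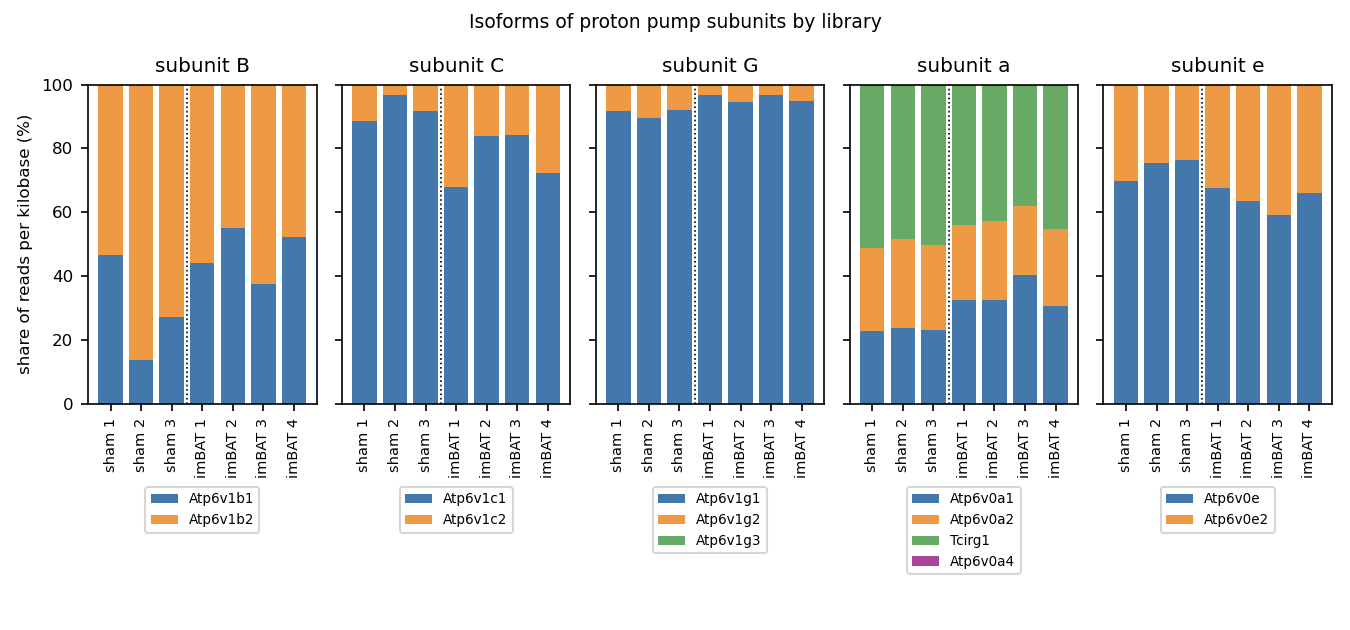
Share of each isoform (y axis, % of the reads per kilobase of exon of all isoforms of that subunit) in each of the 7 libraries (x axis), 1 panel per subunit, with a dotted line between the sham and imBAT libraries. Atp6v1c2 and Atp6v0a1 take a larger share in every imBAT library than in any sham library, while the Atp6v1b1 share of sham replicate 1 (46.4%) lies among those of the imBAT libraries.

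The cathepsins did not move together. Of the 10 cysteine cathepsins outside the placental group, all tested, 4 rose, 1 fell and 5 did not pass the test, and their median log2 fold change was 0.17. These shares of 40% and 10%, over few genes, stand beside 24.3% and 19.3% over all genes tested. The aspartic cathepsin Ctsd rose. The summed level of the cysteine cathepsins was steady in the sham libraries, at 1139 ± 31.2 CPM (SD, n = 3). It varied more in the imBAT libraries, at 2074 ± 582 CPM (n = 4). Much of that sum was Ctsb, at 378 ± 27.6 CPM in sham and 1228 ± 436 CPM in imBAT libraries, so its spread does not describe each cathepsin.

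Ctsk, the collagen-cleaving protease known from osteoclasts and also made by adipocytes (chr3:95499256-95509362, GRCm38), had the largest log2 fold change of the 43 genes. It stood at 0.950, 0.422 and 1.05 CPM in sham and at 10.5, 6.89, 10.5 and 9.95 CPM in imBAT libraries. The log2 fold change was 3.55 ± 0.34, or 11.7-fold (edgeR adjusted p = 0.000816). The library imBAT replicate 2 was the lowest of its group, still well above all sham libraries. Ctsf, a broadly made cysteine protease (chr19:4855130-4860918), stood at 13.3, 14.3 and 15.2 CPM in sham and at 44.4, 29.0, 44.7 and 42.5 CPM in imBAT libraries. It rose by 1.49 ± 0.17 (edgeR adjusted p = 0.00097), with imBAT replicate 2 again the lowest of its group.

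Ctsb, the most abundant of the cathepsins by CPM and a protease of nearly all cells (chr14:63122462-63145923, GRCm38), stood at 397, 346 and 389 CPM in sham. It reached 1407, 825, 1759 and 920 CPM in the imBAT libraries. The groups were far apart, and within the imBAT group replicates 1 and 3 were clearly above replicates 2 and 4. The log2 fold change was 1.70 ± 0.27, or 3.25-fold (edgeR adjusted p = 0.00233). Of its exon bases, 12.8% overlap Fdft1 on the opposite strand, and whether the authors' counts used strand is not given in the sources used here.

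Ctsl, another widespread protease (chr13:64359337-64370890, GRCm38), stood at 114, 119 and 105 CPM in sham and at 228, 173, 359 and 167 CPM in imBAT libraries. It rose by 1.04 ± 0.26 (edgeR adjusted p = 0.013), a call that was lost without sham replicate 3 (edgeR adjusted p = 0.051). A transcript on the opposite strand, Gm47123, covers 26.8% of its exon bases. Ctsd, the main aspartic protease of lysosomes (chr7:142375911-142388038), followed the pattern of Ctsb, at 151, 129 and 131 CPM in sham and at 412, 361, 577 and 241 CPM in imBAT libraries. It rose by 1.54 ± 0.26, or 2.91-fold (edgeR adjusted p = 0.00316), with imBAT replicate 3 the highest. The annotated gene Gm49369 shares 34.4% of the exon bases of Ctsd on the same strand. This makes the counts of Ctsd uncertain, and the share of its reads affected is not known.

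Ctsw, a cathepsin of cytotoxic T cells and natural killer cells (chr19:5465043-5468507, GRCm38), was the one that fell. It stood at 49.6, 48.9 and 59.2 CPM in sham and at 19.98, 26.4, 11.6 and 23.6 CPM in imBAT libraries. That is a log2 fold change of -1.37 ± 0.24 (edgeR adjusted p = 0.00366), and imBAT replicate 3 was the lowest. Over the same libraries the summed level of 10 markers of natural killer and cytotoxic cells ran from 73.5 to 88.3 CPM in sham and from 23.7 to 45.3 CPM in imBAT, with 5 markers lower and 2, Gzma and Gzmb, higher. The 10 T cell markers summed to 1168 to 1469 CPM in sham and 181 to 588 CPM in imBAT libraries. The library imBAT replicate 3 had the lowest sum of both lists, and the part of these cells in the fall of Ctsw was not tested.

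Ctss, the protease that prepares MHC class II molecules in antigen-presenting cells (chr3:95526786-95556403, GRCm38), stood at 163, 175 and 177 CPM in sham and at 164, 88.4, 95.1 and 127 CPM in imBAT libraries. The groups overlapped through imBAT replicate 1, and the log2 fold change of -0.54 ± 0.20 did not pass the test (edgeR adjusted p = 0.0594). Without imBAT replicate 1 it passed, at -0.73, as it did under upper-quartile scaling, with the 1 CPM filter, with DESeq2, with limma voom and with the title number as a block. Of the other cathepsins of immune cells, Ctsh, an aminopeptidase, had -0.24 ± 0.15, Ctsc, which activates granule proteases, had -0.03 ± 0.17, and Ctse, an aspartic protease of endosomes, had -0.44 ± 0.40. Ctsh passed the test under upper-quartile scaling alone, at -0.48, and Ctse with the title number as a block alone, at -0.79. The sign of Ctsc turned to 0.09 with the title number as a block, to 0.04 with limma voom, and to 0.02 and 0.11 without sham replicate 2 and imBAT replicate 2. Ctso had -0.18 ± 0.16, Ctsz 0.37 ± 0.18 and the serine carboxypeptidase Ctsa 0.26 ± 0.13. Ctsz and Ctsa passed the test without imBAT replicate 2, with limma voom and with the block.

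The placental cathepsins and the neutrophil protease Ctsg were at the edge of detection. Ctsm had no count in any library, which allows at most 3 counts per library, and Ctsq had 1. Ctsr had 0 counts in each sham library and 49, 24, 5 and 0 in the imBAT libraries, and Ctsj had 27 of its 33 counts in imBAT replicate 1. Ctsg had 63 counts over all libraries.

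Among the membrane proteins, 4 of the 5 tested rose and Lamp3 fell, with a median log2 fold change of 0.90. Lamp1 and Lamp2 make up much of the sugar coat that lines the lysosome. Lamp1 (chr8:13159161-13175338, GRCm38), the gene with the run of E-boxes shown above, stood at 210, 196 and 189 CPM in sham and at 437, 289, 460 and 363 CPM in imBAT libraries. It rose by 0.96 ± 0.16 (edgeR adjusted p = 0.00302). Lamp2, which also serves chaperone-mediated autophagy (chrX:38401357-38456454), stood at 97.1, 76.5 and 85.9 CPM in sham and at 233, 130, 257 and 212 CPM in imBAT libraries. It rose by 1.26 ± 0.22 (edgeR adjusted p = 0.00341), and for both genes imBAT replicate 3 was highest and replicate 2 lowest in the imBAT group.

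Cd63, a tetraspanin of late endosomes and exosomes, stood at 68.8 ± 9.96 CPM (SD, n = 3) in sham and 129 ± 24.3 CPM (n = 4) in imBAT libraries, a log2 fold change of 0.90 ± 0.17 (edgeR adjusted p = 0.00422). A pseudogene of it, Cd63-ps, had 242 to 320 counts in sham and 244 to 561 in imBAT libraries. Scarb2, which carries glucocerebrosidase to lysosomes, rose from 126 ± 6.91 to 180 ± 16.4 CPM, a log2 fold change of 0.51 ± 0.10 (edgeR adjusted p = 0.00564). Lamp5, a relative known from neurons and plasmacytoid dendritic cells, had 6 counts and was not tested.

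Lamp3, the member of the family that marks mature dendritic cells (chr16:19653378-19706375, GRCm38), stood at 1.99, 2.67 and 2.72 CPM in sham and at 0.756, 0.621, 0.197 and 0.983 CPM in imBAT libraries. The groups were apart and the log2 fold change was -1.94 ± 0.43 (edgeR adjusted p = 0.00759). Of 10 dendritic cell markers, 7 fell and none rose, with sums of 630 to 761 CPM in sham and 221 to 419 CPM in imBAT libraries. The library imBAT replicate 3 was lowest in both Lamp3 and that sum, and the part of dendritic cells in the fall of Lamp3 was not tested.

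Mcoln1, the calcium channel of the lysosome (chr8:3500457-3515232, GRCm38), hardly differed. All imBAT values lay just above all sham values: it stood at 56.8, 60.3 and 61.8 CPM in sham and at 62.4, 62.1, 63.1 and 61.9 CPM in imBAT libraries, a log2 fold change of 0.06 ± 0.08 that did not pass the test (edgeR adjusted p = 0.531) and turned to -0.18 under upper-quartile scaling. The transcription factors moved in opposite directions and by little. Tfeb (chr17:47737030-47792419) stood at 74.8, 62.1 and 72.9 CPM in sham and at 57.2, 55.7, 36.1 and 52.6 CPM in imBAT libraries, and fell by 0.47 ± 0.16 on the log2 scale (edgeR adjusted p = 0.0433). Tfe3 (chrX:7762560-7775202) stood at 48.8, 53.1 and 54.3 CPM in sham and at 76.2, 56.5, 75.7 and 62.0 CPM in imBAT libraries, with a log2 fold change of 0.38 ± 0.13 (edgeR adjusted p = 0.0407). The groups were apart for both genes, yet neither call was firm: that of Tfeb was lost in 5 of 15 alternative settings (without any one of the sham libraries, without imBAT replicate 4, and with the title number as a block) and that of Tfe3 in 6 (upper-quartile scaling, and without any one of the sham libraries, imBAT replicate 1 or imBAT replicate 3). The 8-letter promoter motif was in 4 of the 19 matched genes that rose, in 2 of the 12 that did not pass the test (Ctsa and Mcoln1) and in 0 of the 2 that fell. The 6-letter E-box was in 8 of the 19, in 2 of the 12 and in 0 of the 2.

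**Figure D3:**
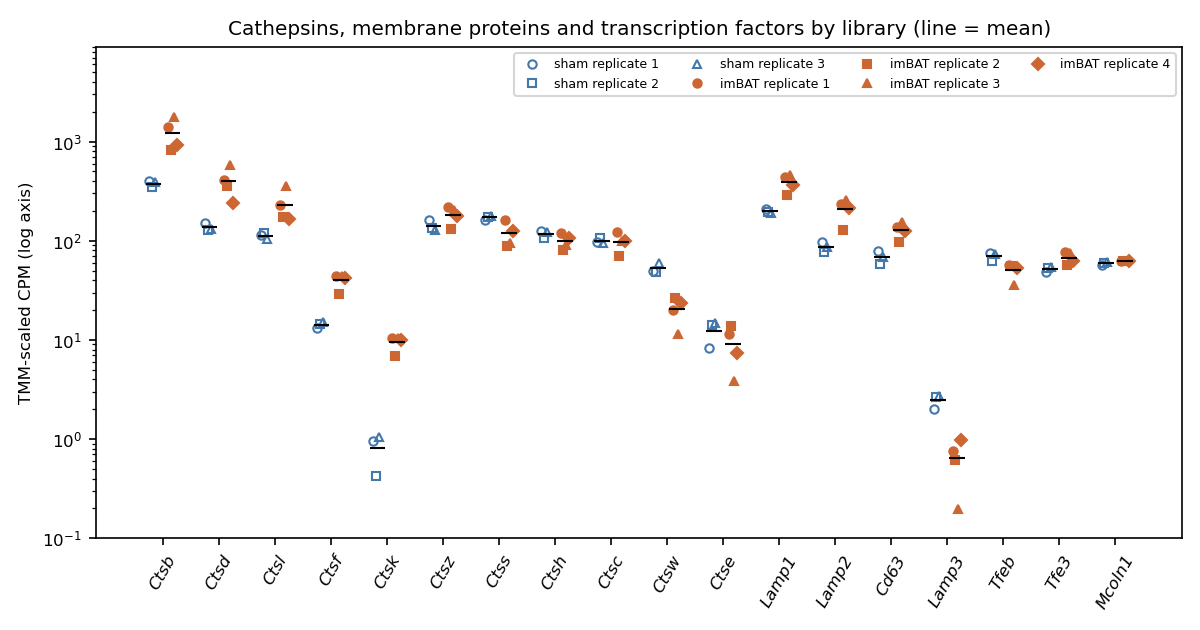
Level of 11 cathepsins, 4 membrane proteins, Tfeb, Tfe3 and Mcoln1 in each library (y axis, TMM-scaled CPM on a log scale), with sham libraries as open blue and imBAT libraries as filled orange symbols, 1 shape per replicate, and a line at each group's mean. Ctsb, Ctsd, Ctsl, Ctsf, Ctsk, Lamp1, Lamp2 and Cd63 lie higher in every imBAT library than in any sham library, Ctsw, Lamp3 and Tfeb lie lower in every one, and Ctsz, Ctss, Ctsh, Ctsc and Ctse overlap.

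Compared per kilobase of exon, the order of the levels changed between the groups. In the sham libraries Ctss was highest, at 127 ± 5.62 CPM per kilobase (SD, n = 3), followed by Ctsz at 98.1 ± 12.01, Lamp1 at 74.2 ± 3.92, Ctsb at 62.4 ± 4.56 and Ctsd at 58.2 ± 5.35. Ctsb was above Ctsd in all 3 sham libraries, though their means were closer than their SDs. In the imBAT libraries Ctsb led, at 203 ± 72.1 CPM per kilobase (SD, n = 4), followed by Ctsd at 169 ± 59.3, Lamp1 at 145 ± 29.0, Ctsz at 127 ± 26.8 and Ctss at 87.2 ± 25.4. There Lamp1 was above Ctsz, and Ctsz above Ctss, in all 4 imBAT libraries. The order of Ctsb, Ctsd and Lamp1 changed from library to library. Among the pump genes Atp6v1g1 and Atp6v0d1 were the highest in the imBAT libraries per kilobase, at 50.7 ± 12.6 and 48.4 ± 6.91.

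**Figure D4:**
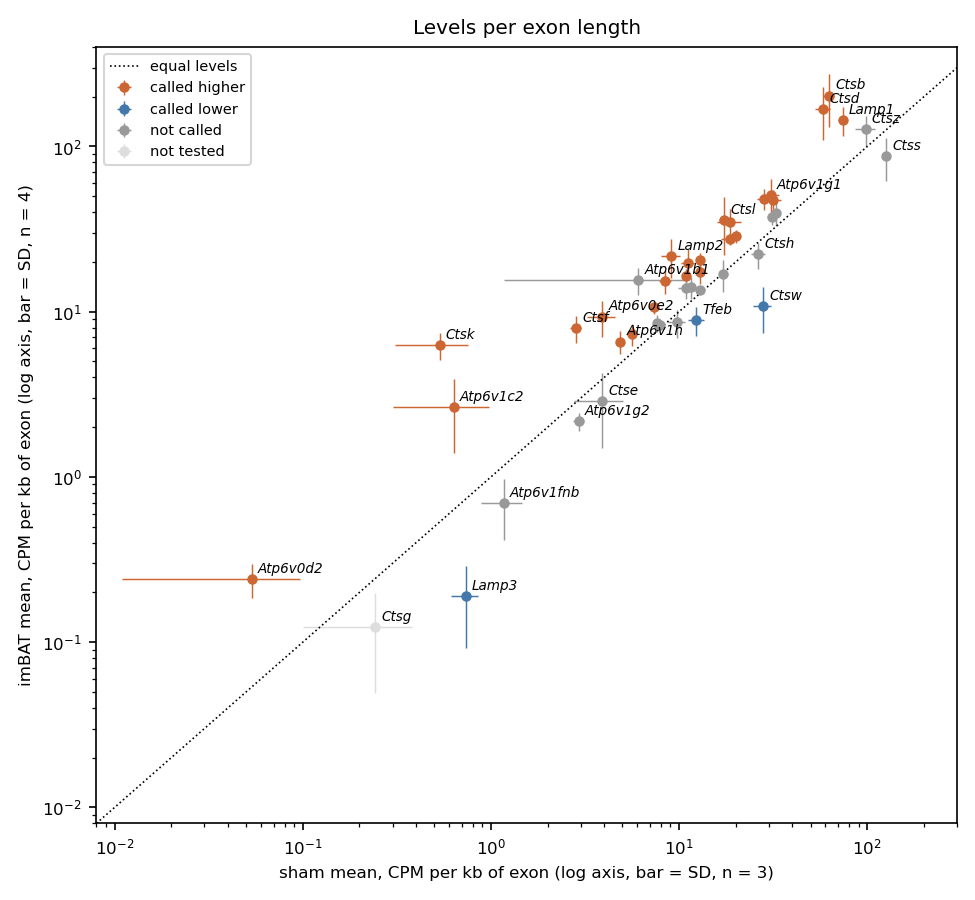
Mean level of each gene per kilobase of exon in the sham libraries (x axis, n = 3) and the imBAT libraries (y axis, n = 4), both in TMM-scaled CPM per kilobase on log axes, with SD bars and a dotted line of equal levels; a selection of genes is labelled. Ctsk, Atp6v1c2 and Atp6v0d2 lie far above the line at low levels, Ctsb and Ctsd above it at high levels, and Lamp3 and Ctsw below it.

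The imBAT libraries were also ranked gene by gene. In 17 of the 24 genes that rose, imBAT replicate 3 was the highest library, and in 17 imBAT replicate 2 was the lowest of its group, with replicate 4 lowest in the other 7. For all 3 genes that fell, imBAT replicate 3 was the lowest. These counts were not made over all genes, so they do not show that the order is particular to the lysosomal genes. The summed level of the 12 adipocyte markers had the same ends: 4867, 2247 and 4614 CPM in sham and 26380, 14330, 32010 and 23950 CPM in imBAT libraries, with replicate 3 highest and replicate 2 lowest.

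The 12 macrophage markers, of which 8 rose and none fell, summed to 1206 to 1394 CPM in sham and to 2726, 952, 2237 and 2100 CPM in imBAT libraries, with imBAT replicate 2 the lowest. Much of that sum was Lyz2, which did not pass the test and stood at 361 CPM in imBAT replicate 2 and at 701 to 792 CPM in sham libraries. In the same library 6 of the 8 markers that rose (Adgre1, Mrc1, C1qa, Cd163, Mertk and Fcgr1) were above every sham library, and C1qb and C1qc were not. Of the markers of lipid-associated macrophages and osteoclasts, 6 of 9 tested rose, at sums of 458 to 740 CPM in sham and 2453 to 5931 CPM in imBAT libraries. Most of that sum was Lpl, which adipocytes also express, and Acp5 belongs to the hydrolases as well. Ocstamp and Dcstamp, which define fusing osteoclasts, stood under 1 CPM in all libraries and did not pass the test, and Calcr was at 0 in 3 of the 7. The part of adipocytes and macrophages in the rises of Ctsk, Atp6v0d2 and the other genes was not tested.

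**Figure D5:**
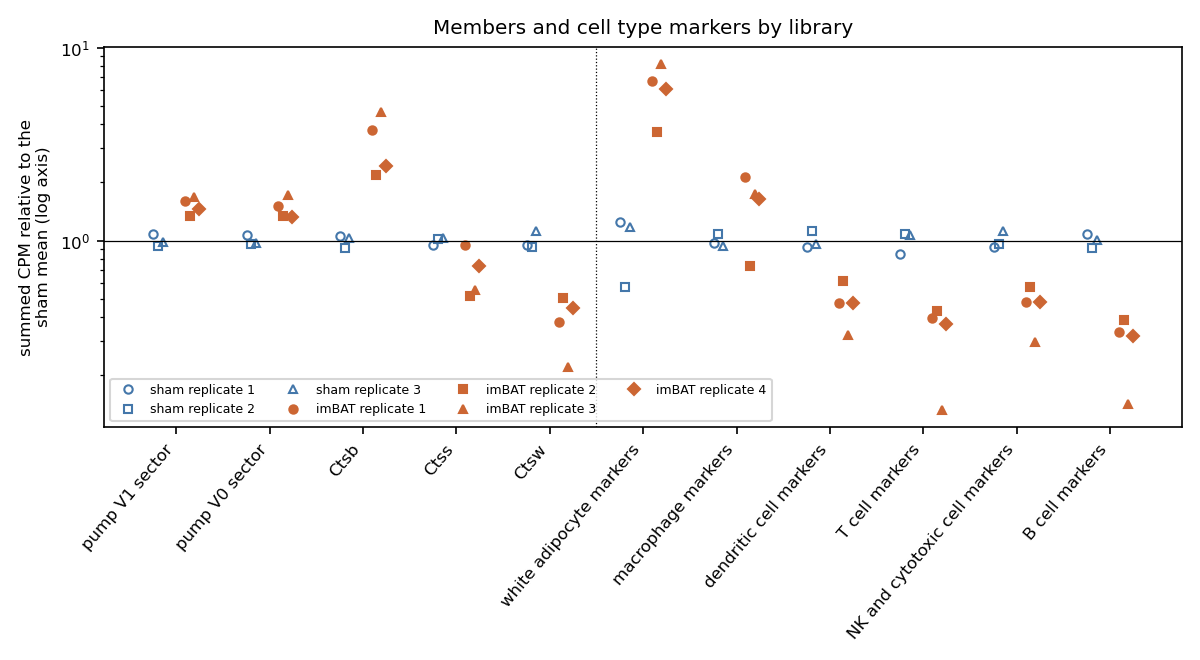
Level of each library relative to the mean of the sham libraries (y axis, log scale) for the summed pump sectors and 3 cathepsins, left of the dotted line, and for summed cell type markers, right of it; blue open symbols are sham and orange filled symbols imBAT libraries, 1 shape per replicate. The library imBAT replicate 2 (squares) is above the sham libraries in both pump sectors and Ctsb and below them in the macrophage sum, much of which is Lyz2, and imBAT replicate 3 (triangles) is lowest in Ctsw and in the T cell, natural killer cell, B cell and dendritic cell sums.

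The other genes of the same machinery were counted from lists, to be read against the 24.3% of all genes that rose, the 19.3% that fell and their median log2 fold change of -0.01. Of the pump genes whose symbols lie outside the choice above, Tcirg1 and Rnasek, neither passed the test. Of 10 factors that assemble or regulate the pump, 3 rose and 4 fell, with a median of 0.05. Dmxl2, a subunit of the RAVE-like complex that joins V1 to V0, rose 3.16-fold, with means of 22.9 ± 3.39 CPM (SD, n = 3) in sham and 72.2 ± 11.2 CPM (n = 4) in imBAT libraries (edgeR adjusted p = 0.000816), while its relative Dmxl1 fell from 246.2 ± 13.7 to 163 ± 6.42 CPM (edgeR adjusted p = 0.002). Oxr1, of the TLDc family, rose 1.77-fold and Vma21, an assembly chaperone of V0, rose 1.51-fold. Rogdi, a further part of the RAVE-like complex, and the TLDc proteins Tldc2 and Ncoa7 fell.

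Of 36 further lysosomal enzymes and their activators, most of them hydrolases and all tested, 21 rose and 1 fell, with a median log2 fold change of 0.45. Hgsnat, which acetylates heparan sulfate for its breakdown, rose 2.498-fold (edgeR adjusted p = 0.000867), from 17.7 ± 1.15 CPM (SD, n = 3) in sham to 44.3 ± 6.60 CPM (n = 4). Gaa, the acid glucosidase that digests glycogen, rose 2.01-fold, and Aga, which cleaves sugar from asparagine, 1.92-fold. Neu1, the sialidase that works in a complex with Ctsa, fell 1.28-fold. Of 10 cathepsin inhibitors, 6 were tested: Serpinb6a, Cstb and Cst3 rose 2.44-, 1.72- and 1.67-fold, and Serpina3g and Cst7, inhibitors made by immune cells, fell 2.505- and 2.32-fold.

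Of 21 further membrane proteins of the lysosome, 8 rose and 5 fell, with a median of 0.24, and the share that fell was near that over all genes. Laptm4a and Laptm4b rose 2.26- and 2.23-fold, the cation channel Tpcn1 rose 1.71-fold and the cystine exporter Ctns 1.44-fold. Their relative Laptm5, known from blood cells, fell 2.03-fold, from 619 ± 38.2 CPM (SD, n = 3) in sham to 306 ± 78.0 CPM (n = 4). The Mcoln1 relatives Mcoln2 and Mcoln3 fell 2.38- and 2.45-fold, and Slc38a9, the arginine sensor, 1.50-fold. Cln3, a membrane protein mutated in a childhood lysosomal storage disease, also fell.

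Of 12 genes that deliver enzymes to lysosomes, 6 rose and 2 fell, with a median of 0.27. Sort1, the sorting receptor sortilin, which adipocytes also use for their glucose transporter vesicles, rose 5.68-fold, from 67.7 ± 16.7 CPM (SD, n = 3) in sham to 385 ± 114 CPM (n = 4). Igf2r, a receptor for mannose phosphate, rose 1.50-fold, Cln8, a carrier from the endoplasmic reticulum, 1.89-fold, and Vps26a, of the retromer, 1.35-fold. The coat adaptors Gga3 and Gga2 fell. Of 15 genes of the mTORC1 machinery on the lysosome, 7 rose and 2 fell, with a median of 0.33: the GTPase Rragc rose 1.83-fold, while Rragd and Rragb fell 2.34- and 2.00-fold. Mitf and Tfec complete the family of Tfeb and Tfe3, and Mitf rose 1.80-fold while Tfec fell 1.66-fold.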

How the data were processed

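RNA from 3 sham and 4 imBAT libraries was measured. The deposited table gives raw counts of reads for each gene and library. Per the labels' protocols, reads were aligned to the primary assembly of Ensembl release 101 with STAR 2.7.9a; per the submitters' processing notes, featureCounts 2.0.3 and Salmon 1.5.2 were also used. How strand and multiply matching reads were handled is not given in the sources used here. The table had 55774 rows, of which 287 repeated a gene with identical counts and were dropped. Groups came from the treatment label; replicate numbers follow accession order and only name a library.

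All 26393 genes that passed filterByExpr (minimum count 10) were fitted with edgeR 4.0.16 in R 4.3.3 by the robust quasi-likelihood F test, with TMM scaling, group alone in the model, 5 residual degrees of freedom and Benjamini-Hochberg adjustment over all of them. The SE of a log2 fold change was taken from the fold change and its F statistic (|log2 fold change| over √F). CPM values are TMM-scaled. Exon lengths and coordinates came from GENCODE M21 on GRCm38; isoform shares have no test. The lysosomal genes, the lists and the rule for naming genes were chosen with earlier results of these data known. The rule prints per-library values for the 8 genes with the largest rise, up to 8 with the largest fall, the 4 with the highest CPM and 10 genes fixed by role, and names up to 4 genes per list and direction by smallest p, plus those against the majority, except 1 gene that is not reported here but was kept in the fits and counts; Ctss, Ctsr, Ctsj, Atp6v1a, Atp6v1b1 and the marker genes were added after their values were seen. As alternatives, scaling was changed to RLE or upper quartile, the filter was dropped or set to 1 CPM in at least 3 libraries, and the fit was repeated with DESeq2 1.42.0, limma 3.58.1 voom with quality weights, the number opening each title as a block, each library left out, an adjusted p under 0.10 and, for isoform shares, reads not divided by length. The fits were tested on simulated counts with known changes, at an adjusted p under 0.05. Of the calls, 14 of 129 were false with edgeR, 51 of 194 with DESeq2 and 5 of 113 with limma voom. With edgeR 32% of log2 changes of 1 and 83% of log2 changes of 2 were recovered. The simulation changed a far smaller share of genes than was called in the data. The false share and the recovery depend on that share, so neither rate can be carried over to the calls reported here.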

Additional observations from a re-analysis of the deposited data

Results flagged for a closer look

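In 2 of the 43 tested genes, 1 of the 4 imBAT libraries stood apart from the rest by Dixon's gap test at the 95% level, which by chance flags about 1 in 20 groups. Both times it was imBAT replicate 2. Its Ctsf level was 29.05 CPM, while the other imBAT libraries lay between 42.5 and 44.7 CPM. Its Ctsk level was 6.885 CPM, while the others lay between 9.95 and 10.5 CPM. Both values were above every sham library.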

How the results depend on the processing

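Of the 27 genes called, 20 kept their call and direction under all 15 alternative settings and none changed direction. The 7 that lost the call in at least 1 setting were Atp6v1b2, Atp6v1h, Tfe3, Tfeb, Atp6v1g1, Atp6v0d2 and Ctsl; Atp6v0d2 and the uncalled Atp6v1fnb were too low to be tested under the filter of at least 1 CPM in 3 libraries. Of the 16 genes not called, 10 were called in at least 1 setting. The number of genes that fell was 3, and 6 under upper-quartile scaling and 5 under each of the 1 CPM filter, DESeq2, limma voom and an adjusted p under 0.10, where Atp6v1g2 and Ctss were added. The number that rose was 24, and ranged from 19 to 29 with 1 library left out. Over all genes 11491 were called, and from 7519 to 11403 with 1 library left out. Under upper-quartile scaling the log2 fold changes of Atp6v1c1, Atp6v0a2 and Mcoln1 changed sign, to -0.077, -0.17 and -0.18. Ctsc, at -0.03, turned to 0.043 with limma voom and 0.094 with the block, and ran from -0.16 to 0.11 with 1 library left out. The 10 isoform shares gave 80 values over all their alternatives, most of them with 1 library left out. Of these values 5 moved, all without division by length, so that 5 of the 10 shares depended on that choice. Among them was the group difference for Atp6v0a2, which was -4.75 in place of -3.42 percentage points. With the title number as replicate block, imBAT replicate 2 has no partner and drops out, and 2 residual degrees of freedom remain; 29 genes rose, 4 fell and 10853 were called over all genes. Same-numbered libraries correlated by 0.102, 0.114 and -0.01, and libraries with different numbers by -0.143 to 0.0401. So few pairs cannot decide whether the number marks a pairing. Low depth limits Atp6v0d2, Lamp3 and the genes not tested, and 3 against 4 libraries limit all.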
